A study of Homo sapiens with 2 samples.

Results

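The genes described here encode 49 core proteins and regulators of pre-mRNA splicing, out of 19974 protein-coding genes on chromosomes 1 to 22 and X in RefSeq (GRCh38.p14, the assembly of hg38). They were chosen by name as subunits of the spliceosome and as SR proteins, and all 49 were matched. The data were 1 list of 1645 ChIP-seq peaks, of which 1564 on those chromosomes were used, from F36P, a human erythroleukaemia cell line. AM-ERG cells (labelled as overexpressing ERG) carried MSCV-PIG with ERG, an ETS-family transcription factor, fused to an AM tag; Vector cells (labelled WT) carried the empty retroviral vector. Puromycin (1 µg/ml, 4 days) was used to select both, and their chromatin was immunoprecipitated with an antibody against the tag, so the tagged protein was supplied by the vector and not by the cells' own ERG gene. Each group has 1 library and the peak names match neither label, so the peaks are those of the deposited list, no value has a replicate error and the AM-ERG and Vector cells could not be tested against each other. A peak list holds no expression values, so the identity of the cells was not checked.

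Introns are removed from pre-mRNA by the spliceosome, which assembles on each intron from small nuclear ribonucleoproteins (snRNPs). These are made of an snRNA, a ring of Sm or Sm-like proteins and particle-specific proteins. The U1 snRNP recognises the 5′ splice site, SF1 and the U2AF heterodimer recognise the branch point and the 3′ splice site, and the U2 snRNP with its SF3A and SF3B subunits then takes the branch point. The U4/U6.U5 tri-snRNP joins, catalytic-stage proteins complete the active centre, and SR proteins bind exons and help choose the splice sites. In blood, several of these genes (SF3B1, SRSF2, U2AF1 and ZRSR2) are known for recurrent mutations in myelodysplastic syndromes and acute myeloid leukaemia.

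Peaks of the list lay at the RefSeq start (summit within 1 kb) of 10 of the 44 genes with a start in the table. The share over all coding genes with a start was 6.01%. The promoters of 6 of the 10 hold an 8-base form of the ETS recognition sequence, CCGGAAGT, on one strand or the other. It is in 6.17% of all coding promoters and in 22.2% of those with a start peak. These 6 are shown because they carry both features, together with SNRPB2, which has a peak at its start but not this exact sequence. The SNRPB2 window still holds 8 copies of the shorter ETS core GGAA or its reverse complement TTCC. Among them is CCGGAAGC, which differs from the searched form in the last base. Each is the RefSeq promoter window of 300 bases (250 before the start and 50 from it on, GRCh38.p14), written 5′ to 3′ along the gene, with CCGGAAGT or its reverse complement ACTTCCGG in capitals. The capitals mark a place in the window, which the peak need not cover. In ISY1, SNRPB, U2AF2, SRSF5 and SF3A1 they lie inside the peak. In SNRPA1 they lie 114 to 107 bases before the start, outside the peak, which covered 35 of the 300 bases.

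ISY1, chr3:129161014-129161313, minus strand: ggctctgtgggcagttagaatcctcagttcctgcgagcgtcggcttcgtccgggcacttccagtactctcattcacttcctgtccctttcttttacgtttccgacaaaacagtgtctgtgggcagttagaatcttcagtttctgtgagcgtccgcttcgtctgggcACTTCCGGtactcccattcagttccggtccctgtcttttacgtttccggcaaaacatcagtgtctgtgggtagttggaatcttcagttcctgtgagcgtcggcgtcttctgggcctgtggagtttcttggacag

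SNRPB, chr20:2470740-2471039, minus strand: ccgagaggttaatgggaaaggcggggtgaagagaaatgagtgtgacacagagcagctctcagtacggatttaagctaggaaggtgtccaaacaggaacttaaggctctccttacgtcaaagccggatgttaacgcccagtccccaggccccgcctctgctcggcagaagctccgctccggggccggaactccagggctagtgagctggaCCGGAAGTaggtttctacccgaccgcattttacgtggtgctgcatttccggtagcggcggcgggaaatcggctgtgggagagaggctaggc

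U2AF2, chr19:55654785-55655084, plus strand: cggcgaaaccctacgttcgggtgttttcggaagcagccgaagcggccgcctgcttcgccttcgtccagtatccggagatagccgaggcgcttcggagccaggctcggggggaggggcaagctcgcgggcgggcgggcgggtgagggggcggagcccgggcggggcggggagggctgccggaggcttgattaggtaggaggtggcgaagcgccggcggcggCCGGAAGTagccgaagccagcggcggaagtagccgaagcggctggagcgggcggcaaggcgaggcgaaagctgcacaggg

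SNRPA1, chr15:101295199-101295498, minus strand: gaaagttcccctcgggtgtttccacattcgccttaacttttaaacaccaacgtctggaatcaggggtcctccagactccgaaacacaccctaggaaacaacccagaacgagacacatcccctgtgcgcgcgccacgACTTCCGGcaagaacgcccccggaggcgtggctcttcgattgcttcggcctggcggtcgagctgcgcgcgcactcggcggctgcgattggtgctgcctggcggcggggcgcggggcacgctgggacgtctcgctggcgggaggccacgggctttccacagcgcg

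SRSF5, chr14:69766892-69767191, plus strand: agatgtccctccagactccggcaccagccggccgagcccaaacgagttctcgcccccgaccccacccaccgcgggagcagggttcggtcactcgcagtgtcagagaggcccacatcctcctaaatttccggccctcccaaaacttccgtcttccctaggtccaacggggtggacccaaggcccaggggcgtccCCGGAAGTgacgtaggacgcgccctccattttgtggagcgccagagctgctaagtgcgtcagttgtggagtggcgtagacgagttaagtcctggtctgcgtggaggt

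SF3A1, chr22:30356845-30357144, minus strand: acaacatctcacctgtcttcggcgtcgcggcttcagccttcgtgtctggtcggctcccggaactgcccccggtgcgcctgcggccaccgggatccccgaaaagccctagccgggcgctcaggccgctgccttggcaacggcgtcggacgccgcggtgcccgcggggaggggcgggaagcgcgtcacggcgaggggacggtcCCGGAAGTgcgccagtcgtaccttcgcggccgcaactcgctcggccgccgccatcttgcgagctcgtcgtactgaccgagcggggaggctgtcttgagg

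SNRPB2, chr20:16729776-16730075, plus strand: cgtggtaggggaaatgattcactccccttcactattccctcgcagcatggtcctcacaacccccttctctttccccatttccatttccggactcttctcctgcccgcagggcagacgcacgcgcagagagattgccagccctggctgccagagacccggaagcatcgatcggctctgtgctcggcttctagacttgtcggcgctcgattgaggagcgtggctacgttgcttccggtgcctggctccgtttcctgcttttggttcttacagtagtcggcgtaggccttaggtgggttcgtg

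The peaks were first counted gene by gene. A summit (the highest point of a peak) lay in the gene or within 10 kb of it for 14 of the 49 genes, or 28.6% (95% Wilson interval 17.8 to 42.4%), where 9.58% of all protein-coding genes had one. A summit lay within 1 kb of one of the gene's own ends for 11 of 49, or 22.4% (13.0 to 35.9%), where the share over all protein-coding genes was 5.86%. Splicing genes are short (median 16.4 kb against 24.2 kb), and genes of like length, in 10 bins, would give 5.14 genes for the wider measure and 3.21 for the narrower one. The observed counts were 2.73 and 3.42 times those. The intervals cover counting error only and treat genes as units; a group of genes chosen with earlier results of these data known was given no test.

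The 14 genes with a peak in or near them were all among the 40 splicing genes of the 6 shorter length bins. None of the 9 splicing genes in the 4 longer bins, from 35341 bp upward, had one. Taking 3 as the upper limit of a count of 0 allows a share of up to 33.3%. Over all protein-coding genes the shares in those 2 ranges were 9.57% and 9.59%. The boundary between the ranges falls where the splicing genes with a peak end. The 9 genes lay in bins 7 (4 genes) and 8 (5 genes), where 12.0% and 9.51% of all coding genes had a peak. At such shares a count of 0 in 9 genes is not unusual, so no split by length is read from it.

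**Figure D1:**
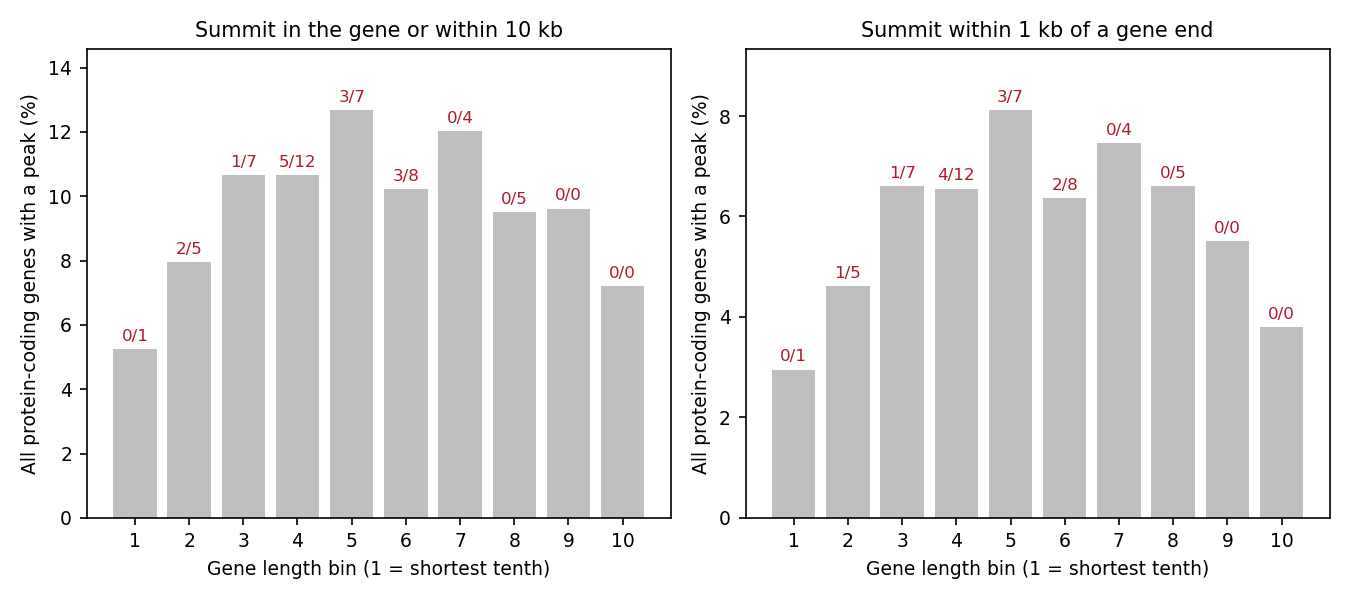
Bars give the percentage of all protein-coding genes with a peak (y axis) in 10 bins of gene length (x axis, 1 the shortest), for a summit inside or up to 10 kb outside the gene (left) and within 1 kb of a gene end (right). The red fractions are splicing genes with a peak over splicing genes in the bin; 5 of 12 in bin 4 and 3 of 7 in bin 5 had one by the wider measure.

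The 18 peaks in or near splicing genes ran from a fold enrichment of 2.87 to 12.6 over local background (the authors' value for each peak), with a median of 4.64. The median of all 1564 peaks was 4.66. At the 12 peaks within 1 kb of a splicing gene's own end the median was 4.88, against 4.87 at the 966 peaks within 1 kb of any protein-coding gene end. ISY1 ranked 9 of 1564 by fold and SNRPB ranked 85.

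**Figure D2:**
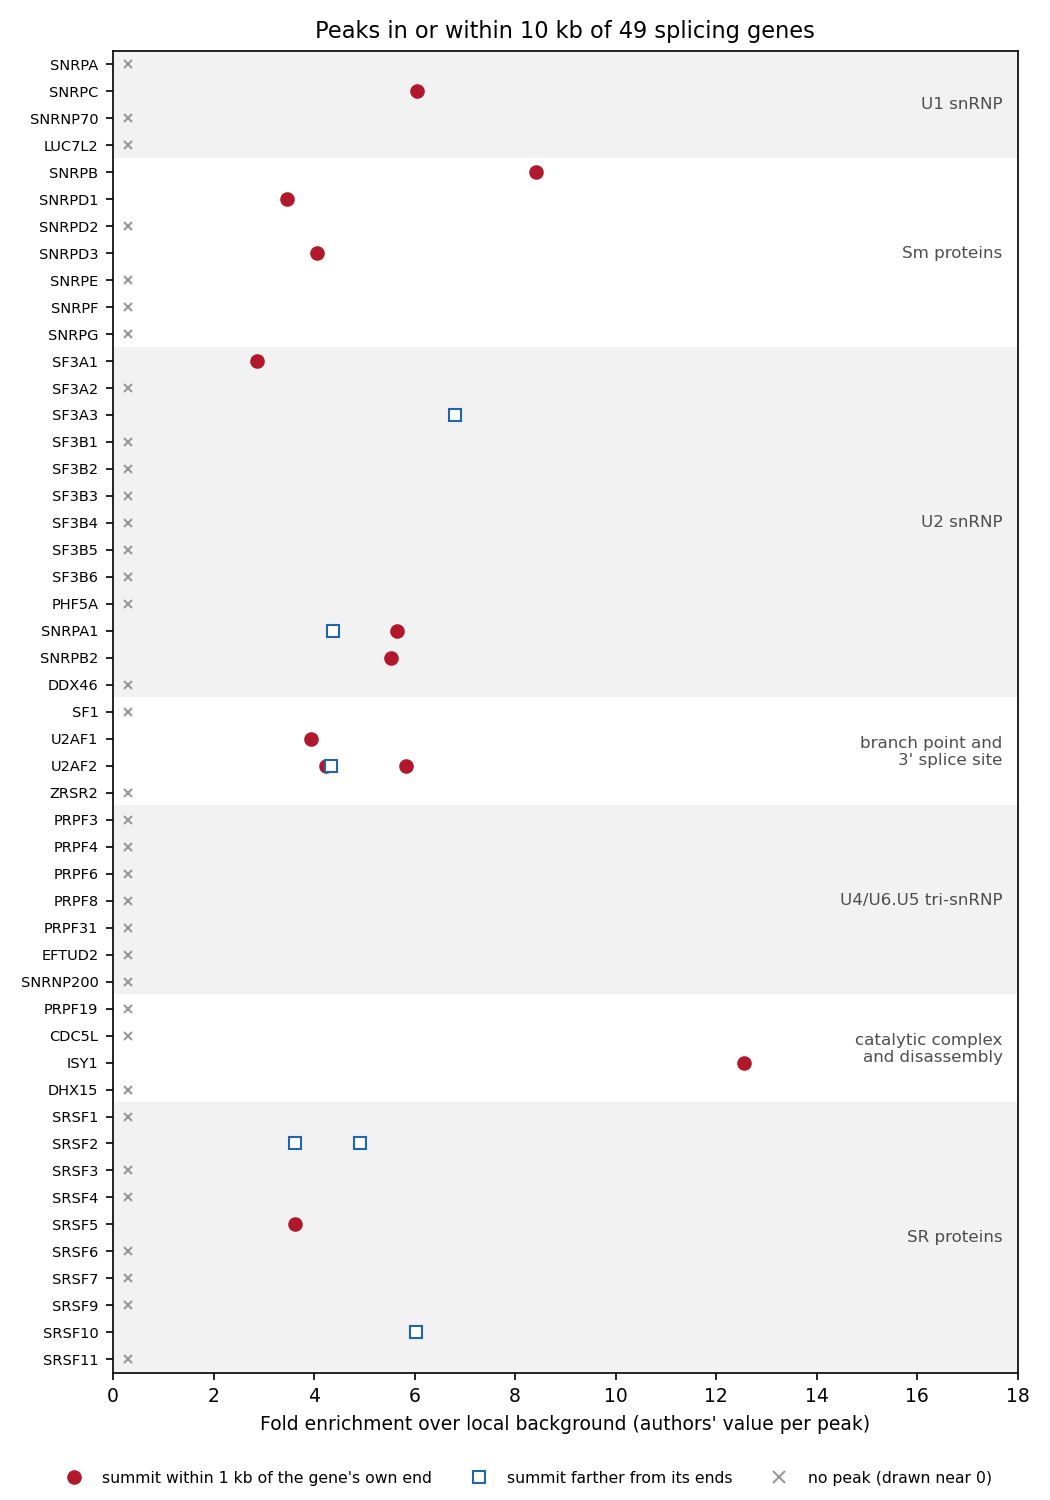
Each row is 1 of the 49 splicing genes, grouped by role, and each symbol is a peak at its fold enrichment over local background (x axis, the authors' value). Red circles are summits within 1 kb of the gene's own end, open blue squares are summits farther from its ends but within 10 kb, and grey crosses are genes without a peak; ISY1 stands apart at 12.6.

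Of the 4 U1 snRNP genes, SNRPC had a peak, where genes of like length would give 0.435 by the 10 kb measure. Counts by role, here and below, rest on few genes with wide intervals, so no difference between roles is read from them. SNRPC encodes U1-C, which steadies the pairing of U1 with the 5′ splice site. Its peak at chromosome 6, 34757454 to 34757783 (hg38, as all peak positions here), had a fold of 6.04, with a pileup of 18 fragments over a background of 2.14. The summit lay inside the gene, 125 bp from the start, and no other gene end was within 1 kb. SNRPA, SNRNP70 and LUC7L2 had none, with the nearest summits 326, 360.0 and 231 kb away.

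Among the 7 Sm genes, whose products form the ring around U1, U2, U4 and U5 snRNA, SNRPB, SNRPD1 and SNRPD3 had a peak, each inside the gene near an end. SNRPB encodes SmB and its spliced variant SmB′. Its peak at chromosome 20, 2470301 to 2470852, had a fold of 8.42, a pileup of 30 and a background of 2.68, with the summit 179 bp into the gene. No other gene end lay within 1 kb, and the promoter printed above holds CCGGAAGT 41 to 34 bases before the start. SNRPD1, at chromosome 18, 21612345 to 21612713, had a fold of 3.47 with the summit 278 bp inside one end, again with no other gene end near. SNRPD3, at chromosome 22, 24555649 to 24555924, had a fold of 4.05. Its summit was 56 bp into the gene and also inside GUCD1, 188 bp from the start of that gene, so the peak is shared by both. SNRPD2, SNRPE, SNRPF and SNRPG, the other ring members, had their nearest summits 45.3 to 534 kb away.

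The U2 snRNP and its partners make up 13 of the genes, and 4 had a peak, of which 3 were at the gene's own start. For the 10 kb measure 1.31 would be given by genes of like length. SNRPA1 and SNRPB2 encode U2-A′ and U2-B″, which bind U2 snRNA as a pair, and both had a peak just inside the gene. For SNRPA1 the fold was 5.64 at chromosome 15, 101294893 to 101295233, with the summit 186 bp from the start and 286 bp from an end of the noncoding gene SNRPA1-DT. For SNRPB2 it was 5.53 at chromosome 20, 16729549 to 16730409, with the summit 231 bp from the start; this peak, 861 bp wide, covered all 300 bases of the promoter window and had no other gene end within 1 kb. SF3A1 encodes the SF3A subunit that carries a ubiquitin-like domain. It had the weakest peak of the group, with a fold of 2.87, 54 bp before its start and 324 bp from the start of CCDC157. Its −log10 q in the authors' deposited table was 1.40.

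The peak counted for SF3A3, another SF3A subunit, was not at its own end. It lay 9875 bp away, inside FHL3 and over 1 kb from its ends, with a fold of 6.81. SNRPA1 also had a second peak of 4.37 fold, 4112 bp beyond its stop end at the start of SELENOS. SF3A2, the remaining SF3A subunit, was 331 kb from a summit. No SF3B gene had a peak: the nearest summits to SF3B1, SF3B2, SF3B4, SF3B5 and SF3B6 were 64.9, 90.5, 72.6, 583 and 284 kb away, and that of SF3B3 was 3494 kb away. PHF5A, which sits in the same complex, was 75.5 kb from a summit, and DDX46, the helicase that prepares U2 for the branch point, 387 kb.

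Both subunits of the U2AF heterodimer had peaks, and the other 2 genes of 3′ splice site recognition did not. For these 4 genes together, like length would give 0.442 within 10 kb. U2AF2 encodes the large subunit, which binds the polypyrimidine tract, and had 3 peaks. One lay at its own start (chromosome 19, 55654991 to 55655504), with a fold of 4.23 and a summit 84 bp inside. Its pileup of 36 fragments stood on a background of 7.74, which was 2.20 times the median of all peaks and the highest in the group. The most significant of the 3, of 5.83 fold, was 535 bp beyond the gene's stop and 25 bp from the start of EPN1. The third, of 4.33 fold, was 6802 bp upstream, 833 bp from the start of CCDC106.

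U2AF1 encodes the small subunit, which reads the AG at the end of the intron. Its peak at chromosome 21, 43107095 to 43107445, had a fold of 3.94 and a pileup of 15 over 3.06, with the summit 447 bp into the gene. A near-identical copy of U2AF1 is known in the GRCh38 sequence of chromosome 21, so fragments of this gene may have been split between both copies. SF1, the branch point protein, had its nearest summit 19.4 kb away, the closest of the 35 genes without a peak, and ZRSR2, which acts on the rarer U12-type introns, 1761 kb away.

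None of the 7 tri-snRNP genes had a peak in or within 10 kb, and genes of their lengths would give 0.780. Taking 3 as the upper limit of a count of 0 allows a share of up to 42.9%, and the Wilson upper limit was 35.4%. The nearest summits were 311 kb from PRPF3, 942 kb from PRPF4, 116 kb from PRPF6, 194 kb from PRPF8, 95.1 kb from PRPF31, 327 kb from EFTUD2 and 231 kb from SNRNP200. PRPF8 is the large protein at the catalytic centre, and EFTUD2 and SNRNP200 are its GTPase and helicase partners.

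Among the 4 catalytic-stage and disassembly genes, where like length would give 0.399 within 10 kb, ISY1 had the strongest peak of all 49 genes. ISY1 encodes a protein of the activated and catalytic spliceosome. Its peak at chromosome 3, 129161083 to 129161528, had a fold of 12.6, with 38 fragments over a background of 2.11, and its summit lay 193 bp before the start. ISY1-RAB43, a read-through gene, shares that start, so the peak belongs to both names. The ISY1 promoter differs from the others in how far it repeats itself. Moved by 111 bases against itself it matched at 61.9% of positions. Over shifts of 60 to 150 bases, 35 of 15812 coding promoters (0.221%) reached that level. The next highest of the 10 promoters with a start peak was 41.0%. This comparison was chosen after the sequence was seen. The ISY1 window holds 9 copies of GGAA or TTCC, and 231 of its 300 bases lay in the peak. PRPF19, CDC5L and DHX15 had no peak, with nearest summits 255, 140.2 and 8074 kb away.

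Of the 10 SR protein genes, 3 were counted and 1 of them, SRSF5, had the peak at its own end. Their lengths alone would give 1.01 within 10 kb and 0.621 at an own end. At SRSF5 (chromosome 14, 69766838 to 69767418) the fold was 3.62 with a pileup of 13 over 2.87, the lowest pileup of the group, and the summit was 150 bp inside the gene and 421 bp from an end of the noncoding gene LOC100289511. The peaks counted for the other two were at neighbours. SRSF2 had peaks of 4.91 and 3.62 fold 7090 and 7945 bp away, both within 1 kb of ends of METTL23 and JMJD6. SRSF10 had one of 6.02 fold 4977 bp beyond its stop, at the start of PNRC2. SRSF1, SRSF3, SRSF4, SRSF6, SRSF7, SRSF9 and SRSF11 had none, with nearest summits 141 to 3152 kb away.

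Sharing with neighbours was then summed. Of the 12 peaks at a splicing gene's own end, 5 had no other gene end within 1 kb (SNRPC, SNRPB, SNRPD1, SNRPB2 and the start of U2AF2). Another 3 also lay by an end of a noncoding gene only (SNRPA1, SRSF5 and U2AF1). The last 4 also lay by an end of a protein-coding gene: GUCD1, CCDC157, EPN1 and ISY1-RAB43. Over all peaks at protein-coding gene ends, 22.4% were within 1 kb of ends of 2 or more such genes. Of the 6 peaks at no own end, 5 were within 1 kb of an end of another protein-coding gene, and the 2 of SRSF2 are among them. Over all peaks, 61.8% were within 1 kb of a protein-coding gene end. When each peak was given only to the coding gene with the nearest end, 11 of the 49 genes still had one within 10 kb, and 6.19% of all coding genes did.

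The position of the summits relative to the start was similar to that of the list as a whole. A RefSeq start was in the table for 44 of the 49 genes, and SF3B3, PHF5A, SRSF2, SNRPD1 and PRPF3 were not matched. Of the 44, 10 (22.7%, 12.8 to 37.0%) had a summit within 1 kb of it, where 6.01% of all coding genes with a start did. At the opposite end only U2AF2 had one, in 2.27% of the 44, where the share over all coding genes was 0.329%. In 8 of the 10 genes the summit lay downstream of the start, by 56 to 447 bp, and in ISY1 and SF3A1 it lay 193 and 54 bp upstream. The median was 137.5 bp downstream. Over the 950 coding genes with a summit within 1 kb of the start, 61.2% (58.0 to 64.2%) had it downstream, with a median of 92.5 bp, so the 80.0% of the splicing genes (49.02 to 94.3%) have an interval that holds that value.

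**Figure D3:**
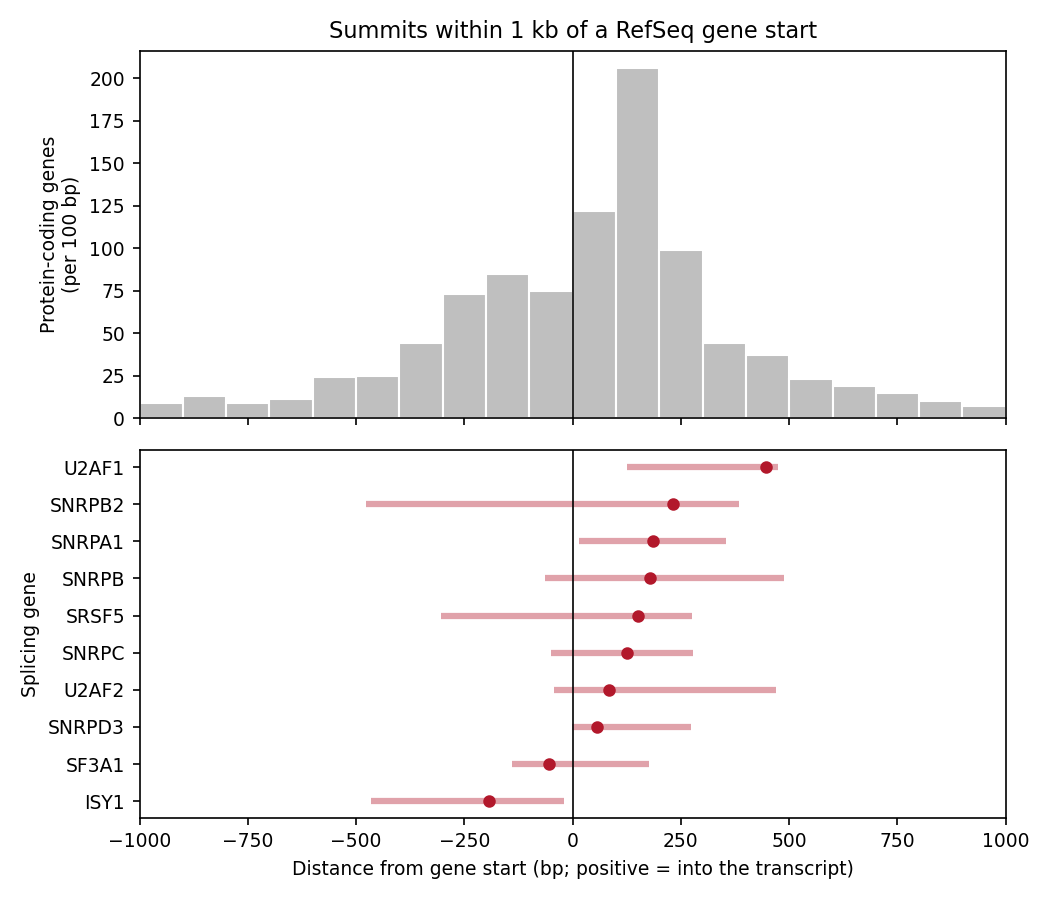
Top, number of protein-coding genes (y axis, per 100 bp) by the distance of the nearest summit from the RefSeq start (x axis, bp, positive into the transcript). Bottom, the 10 splicing genes with a summit within 1 kb of the start, with the peak as a bar and its summit as a point; 8 of the 10 summits are right of the start.

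The fragment counts behind the peaks were modest. The 18 peaks had pileups of 13 to 38 fragments (median 23), against a median of 21 for all 1564 peaks, and local backgrounds of 2.11 to 7.74 (median 3.39 against 3.52). Only the peak at the U2AF2 start stood on more than 2 times the median background. ISY1 and SNRPB joined a high pileup with a low background, while SF3A1 had 16 fragments over 4.93. The depth of the libraries is unknown, so how weak a site the list could show is unknown too, and a gene without a peak is one where none was listed at this depth.

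**Figure D4:**
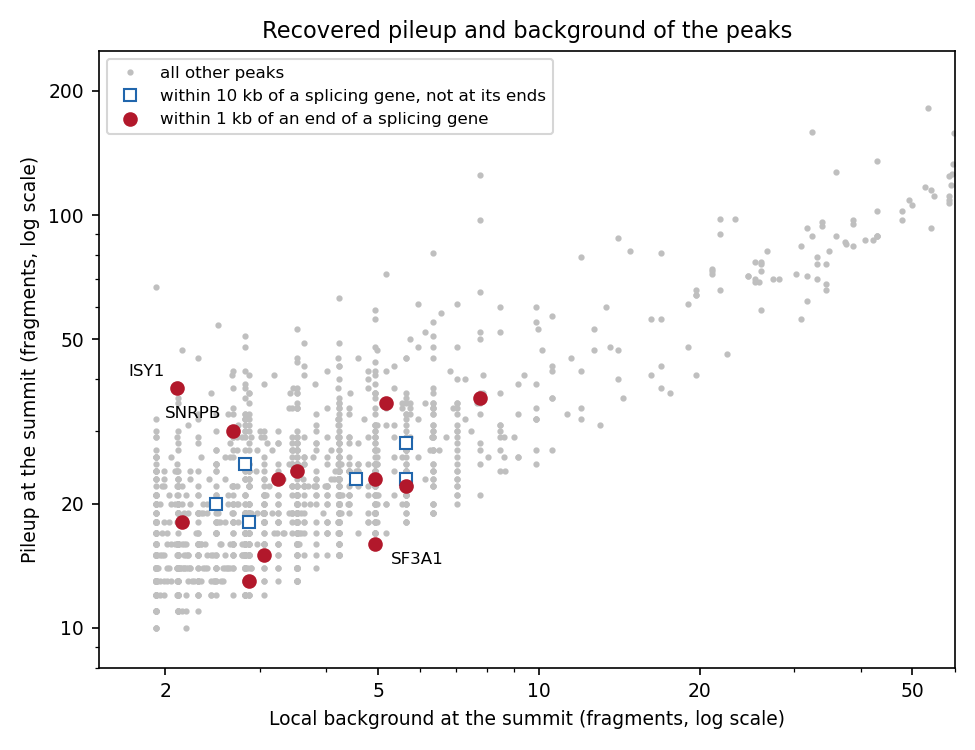
Pileup (y axis) against local background (x axis) at the summit, both in fragments on log scales, recovered from the authors' fold and p, with each grey point 1 of the other peaks; 37 of the 1564 lie beyond the axes. Red circles are the 12 peaks at splicing gene ends and blue squares the 6 within 10 kb but not at the ends; ISY1 has 38 fragments over 2.11 and SF3A1 16 over 4.93.

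Sequence was compared in the RefSeq promoter windows, which the choice of genes did not use. The core GGAA, on either strand, was in 43 of the 44 splicing gene promoters, but 95.2% of all coding promoters hold it. The longer CCGGAAGT, which contains that core, was in 14 of 44, or 31.8% (20.0 to 46.6%), where 6.17% of all coding promoters hold it. It was in 6 of the 10 with a start peak (Wilson interval 31.3 to 83.2%) and in 8 of the 34 without one (23.5%, 12.4 to 40.0%). The 8 were PRPF6, SF3A2, SF3A3, SF3B2, SF3B4, SF3B6, SNRPE and SRSF4. Over all coding genes with a start peak it was in 22.2% (19.7 to 24.96%), and a start peak was listed for 21.6% of the genes with it and 4.98% of those without it. In each of the 6 splicing promoters with a start peak it occurred once, before the start, at 23 to 114 bases, and in SNRPA1 it lay outside the peak. Of the 10 summits within 1 kb of the start, only 2 lay in the windows, and the U2AF1 peak covered 0 bases of its window. Such a match describes the letters only.

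For the other sequences searched, also on both strands, the Wilson interval of the splicing genes held the background share. A GC box, GGGCGG, was in 25 of 44 promoters, or 56.8% (42.2 to 70.3%), with a background of 58.3%. The RUNX core TGTGGT was in 5, or 11.4% (4.95 to 24.0%), against 11.0%. Part of the NRF1 sequence, GCATGCGC, was in 4, or 9.09% (3.59 to 21.2%), against 4.28%. Part of the YY1 sequence, AAGATGGC, was also in 4, or 9.09%, against 3.86%. The GATA sequence AGATAA was in 0 of 44 (Wilson upper limit 8.03%), where 7.63% of all coding promoters hold it. Over all coding genes, a start peak was also listed more often with GGGCGG (7.71% with, 3.63% without) and AAGATGGC (9.17% and 5.88%). With and without GCATGCGC the shares were 6.36% and 5.99%. It was listed less often with TGTGGT (4.64% and 6.18%) and AGATAA (3.40% and 6.22%). Splicing gene promoters had a median GC content of 62.2% and 28 CpG sites, against 62.7% and 22 over all coding promoters.

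**Figure D5:**
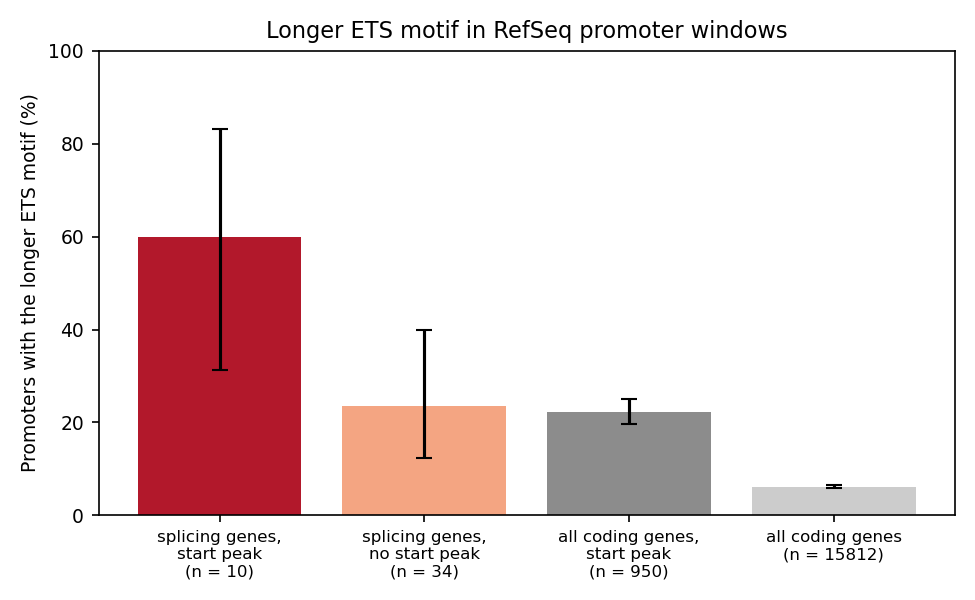
Percentage of RefSeq promoter windows that hold the longer ETS sequence on either strand (y axis), for splicing genes with and without a summit within 1 kb of the start and for all coding genes; error bars are 95% Wilson intervals, which cover counting error only. Of the splicing genes, 6 of 10 with a start peak and 23.5% of those without hold it.

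Other genes of the pathway were taken from a list of 104 further spliceosome and splicing regulator genes, all 104 matched in RefSeq, PRPF4B under its current symbol PRP4K. For 23 of them a summit was listed inside or up to 10 kb outside, or 22.1% (15.2 to 31.0%), where the background was 9.58% and genes of like length would give 11.3. At their own ends 15 had one (14.4%, 8.94 to 22.4%, background 5.86%). In order of significance the first 10 were CHERP (fold 5.05), CWC22 (6.19), PUF60 (6.005), HNRNPF (4.77), HNRNPL (5.18), RBM22 (6.85), LSM4 (3.94), TRA2B (5.41), SNU13 (4.60) and DDX23 (4.98). CWC22, RBM22 and DDX23 act in spliceosome activation and catalysis, PUF60 and CHERP with the U2 snRNP, and HNRNPF, HNRNPL and TRA2B as regulators of splice site choice. The strongest peaks of CHERP, CWC22, PUF60, RBM22, TRA2B and DDX23 were within 346 bp of the gene's own end, and those of HNRNPF, HNRNPL, LSM4 and SNU13 lay deeper in the gene, with end distances of 1560 to 11644 bp. Some were shared with neighbours. The PUF60 summit was 20 bp from an end of LOC107986985 and 516 bp from one of NRBP2. That of DDX23 was 266 bp from an end of LOC105369755, and that of SNU13 17 bp from an end of C22orf46P. SNU13, LSM4 and DDX23 belong to the U4/U6 or tri-snRNP particles, and of these only DDX23 had its strongest peak at an own end. That of LSM4 stood on 2.60 times the median background. As they come from the first 10 only, no share of tri-snRNP genes with a peak is read from them.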

How the data were processed

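Chromatin of F36P cells was immunoprecipitated with an antibody to the AM tag after micrococcal nuclease digestion, with 1 AM-ERG and 1 Vector library, per the labels. Bowtie2, MACS2 and deepTools and build hg38 are named, per the submitters' processing notes; their versions, settings and control were not given in the sources used here. Deposited was a MACS2 narrow peak list in which the authors deposited a score (not used), a fold enrichment (a ratio over local background), the −log10 of the p-value and q-value, and the summit offset of each peak. In the authors' deposited table the largest q-value was 0.0474.

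Pileup and background at each summit were recovered as the whole-number pileup whose Poisson tail gave the deposited p from the fold (tolerance 0.001 in log10 p, reached for 100% of peaks) and the method was tested on simulated data. Genes, starts, strands and promoter sequences were those of RefSeq (GRCh38.p14); of several starts the outermost was taken. Genes of like length were weighted in 10 bins. Every member with a peak is named, and up to 10 of the further spliceosome genes by significance. The members and lists were chosen with earlier results of these data known, so no test was made. Alternatives covered distance limits, peak strength, background and sharing. Peaks on other sequences (81) were left out. The tools were SciPy 1.17.1, numpy 2.4.6, matplotlib 3.10.9 and pandas 2.3.3 under Python 3.11.15.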

Additional observations from a re-analysis of the deposited data

How the results depend on the processing

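No paired analysis was possible because AM-ERG and Vector have 1 library each. The 14 splicing genes with a summit in or within 10 kb became 9 with summits inside the gene only, 8 in the upper 50% of peaks by significance and 9 in the upper 50% by fold, and the 11 with a summit within 1 kb of an end became 6 in each upper 50%. These settings keep fewer peaks or less space by construction, and the background fell with them: over the settings with a like-length expectation (not the RefSeq start alone, 10 of 44) the first count was 1.64 to 3.96 times that of genes of like length and the second 2.87 to 4.57 times. The 23 further spliceosome genes became 9 and 11 in those upper 50% and, with each peak given to the nearest end of any gene, 15. Their ratio ran from 1.25 (within 50 kb) to 3.01. GGAA was in 100% of member promoters with a start peak. With 5 length bins the expected genes were 5.11 and 3.20, and with 5 bins and the number of coding neighbours, a setting chosen after seeing the data, 5.80 and 3.45. Only 3 of the 14 genes had more than 1 peak, and the fold-based order left the strongest peak of those 3 the same. In the others it could not change. The low pileups limit what could be listed.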

Other observations

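The RNA partners of these proteins were looked at after the data had been seen. Of 154 snRNA genes annotated on chromosomes 1 to 22 and X, 8 (5.19%) had a summit within 1 kb. The share of protein-coding genes with one that close to an end was 5.86%. As 7 of the 8 lie in 1 cluster, these shares do not count like units. One was RNU12, the U12 snRNA of the minor spliceosome, on chromosome 22, with a peak 460 bp from the gene, a fold of 4.80 and 24 fragments over 4.21. The other 7 belong to a cluster of 13 snRNA genes of 188 to 192 bp on chromosome 17 (43233790 to 43300231, median spacing 5504 bp). The tandem repeat of U2 snRNA genes is known to lie on the long arm of this chromosome; the table used here gives these copies no U number. The cluster held 8 peaks, with folds of 2.59 to 7.80 (median 5.58) and pileups of 24 to 159 fragments, where the peaks at the protein genes had 13 to 38. By significance they ranked from 10 to 1494 of 1564. In 6 of the 7 genes with a summit near them it lay 456 to 673 bp from the gene, and in the seventh 124 bp. The backgrounds of the 8 peaks ran from 6.57 to 32.4 fragments, with a median of 13.0, which was 3.70 times that of all peaks. Tandem copies of this gene are known to be near-identical, so which copy a fragment came from cannot be told apart, and the part of copy number in these pileups was not tested.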
